A study of Mus musculus with 3 samples.

Results

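The genes described here are 47 mouse genes for molecular chaperones, heat shock factors and the unfolded protein response, of 27724 genes on the array. They were chosen by name from a list of cytosolic heat shock genes (18), subunits of the CCT chaperonin (7), mitochondrial chaperones (4) and endoplasmic reticulum (ER) folding and stress genes (18). They were matched to 91 of 41167 probes through the array's gene names and their current or older symbols. The rule uses names and no measured value, but the list was drawn up with earlier results of these data known.

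The samples were C3H10T1/2 cells, an established mouse embryo line that grows as fibroblasts and is used to score cell transformation. There were 3 groups with 1 array each. The first was untreated, and the others received hexavalent chromium, Cr(VI), at 0.01 uM or at 1 uM for 48 h, starting 24 h after 2000 cells were seeded per flask. Each group had 3 flasks, and the labels do not say whether their RNA was pooled. All groups were then grown to day 15 in changed medium and trypsinized before RNA isolation, so the arrays describe cells days after the dose had ended. The study concerned cell transformation and gene dysregulation at low chromium doses, and the question addressed here is whether the protein folding genes differed between the doses. With 1 array per group there was no test between conditions. Every difference below is between single arrays, and its error is the technical standard error (SE) from the scanner software, which leaves out the spread between cultures.

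As background, chaperones bind unfolded proteins and hold, fold or hand them on. In the cytosol, the Hsp70, Hsp90, J-domain and small heat shock proteins are controlled in part by the factor HSF1, which binds repeats of the bases GAA. In the ER, the sensors IRE1, ATF6 and PERK respond to unfolded proteins and raise the ER chaperones, oxidoreductases and degradation factors. Fibroblasts depend on the ER system because they secrete collagen.

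Signal is given as log2 processed intensity relative to the 75th percentile of the same array, so 0 is the level of the 75th percentile. Over all probes, the share well above background was 41.8% untreated, 36.4% at 0.01 uM and 41.5% at 1 uM. Of the 91 member probes, 78, 77 and 80 were well above background in the same order, and 4, 2 and 4 were saturated. All 11 fibroblast and mesenchymal markers were well above background on every array, and 0 of 6 epithelial markers were on any. Of 5 endothelial markers 1, 1 and 2 were detected (untreated, 0.01 uM, 1 uM), of 8 leukocyte markers 1 on each array, and of 4 myogenic markers 1, 0 and 1. The fibroblast list was not level across arrays, with median signals of 5.36, 5.48 and 5.06. At 1 uM, 4 of its 11 genes stood 1.5-fold or more below the untreated array and 1 above it, while of the 2 endothelial markers compared, Cdh5 was at least 3.78-fold higher and Vwf differed by -0.55 on the log2 scale. The part of these markers in the results below was not tested. In bulk RNA, fewer cells of a type and less RNA per cell cannot be told apart.

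**Figure D1:**
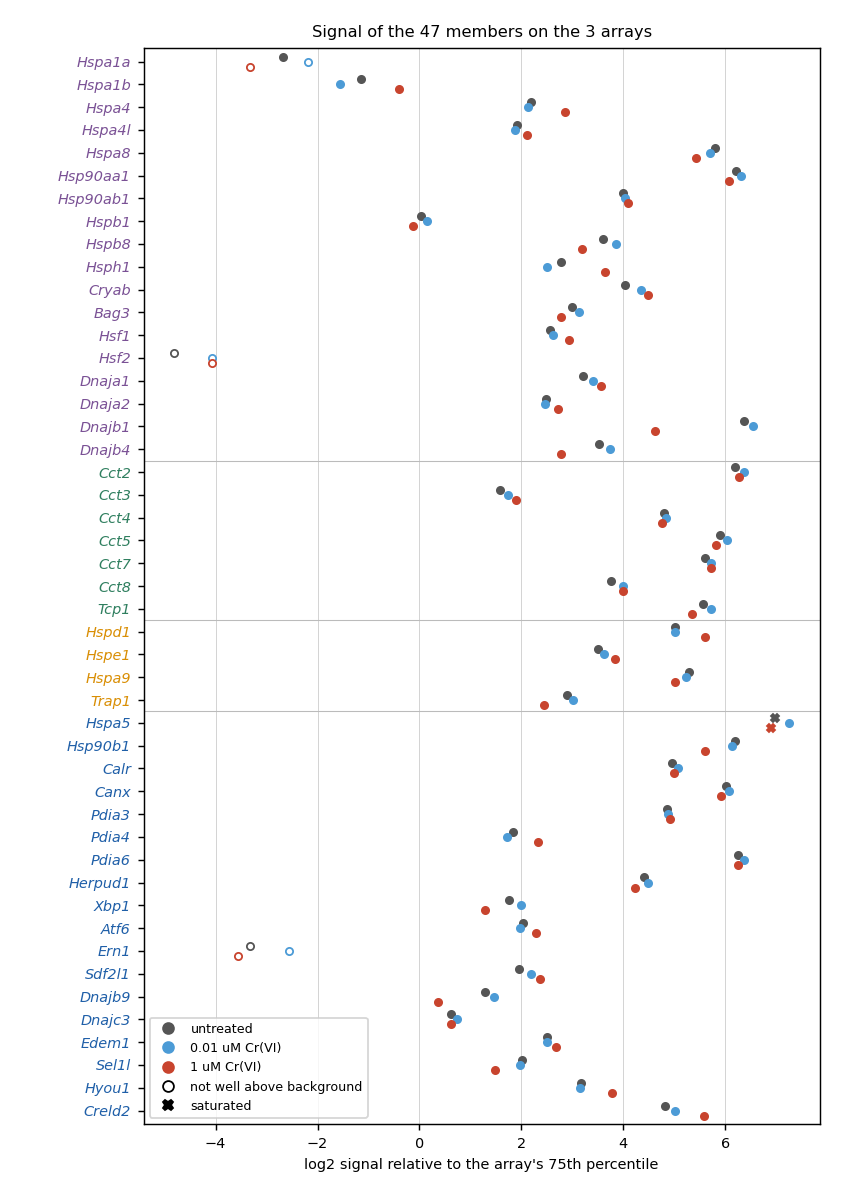
Log2 signal relative to the array's 75th percentile (x axis) of the probe used for each of the 47 members (rows, coloured by compartment), on the untreated, 0.01 uM and 1 uM arrays (1 point per array). Open circles are not well above background and crosses are saturated; for most members the untreated and 0.01 uM points lie together, and the 1 uM point of Dnajb1 stands at 4.63 against 6.36 and 6.54.

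Members went both ways at 1 uM, and most differed little. Of 45 members compared with the untreated array, 6 stood 1.5-fold or more above it (13.3%, against 14.0% of all genes compared) and 3 stood as far below it (6.67%, against 13.5%). The higher genes were Hsph1, Creld2, Hspa1b, Hspa4, Hyou1 and Hspd1. The lower genes were Dnajb1, Dnajb9 and Dnajb4, all of which encode J-domain proteins, the partners that bring substrates to Hsp70. On the probes used, the other J-domain members were not lower, at 0.37 (Dnaja1), 0.24 (Dnaja2) and 0.01 (Dnajc3). At 2-fold, 0 members were higher (5.70% of all genes) and 1, Dnajb1, was lower (4.85% of all genes). The median log2 difference of the 43 measured members was 0.06, beside -0.03 over all genes, and the median technical SE was 0.20. The share of higher members was near that of all genes and is no result about the chaperones.

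By compartment, median differences at 1 uM were 0.15 for 16 measured cytosolic genes, 0.09 for 7 CCT subunits, 0.04 for 4 mitochondrial genes and 0.03 for 16 measured ER genes. As reported, these medians are smaller than the technical SE of a single difference, which is not the error of a median. The size of the medians depended on the processing. Quantile normalization gave 0.25 for the cytosol, 0.35 for CCT, 0.22 for mitochondria and 0.24 for the ER, with all genes at 0.03. Loess scaling gave 0.24, 0.29, 0.18 and 0.20 in the same order, with all genes at 0.05. The mitochondrial median was 0.34 when the brightest of all probes or the mean of probes was used, and the cytosolic median was -0.09 with the mean of probes. The other compartment medians at 1 uM kept their sign in all 11 alternatives. Members ranged from -1.73 to 0.88 in the cytosol and from -0.93 to 0.78 in the ER. Scaling on 5 spike-in probes moved the median over all genes from -0.03 to 0.64. Such a scaling raises all 1 uM differences by the same amount, so a member described below as lower by less than that shift was above 0 after it.

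**Figure D2:**
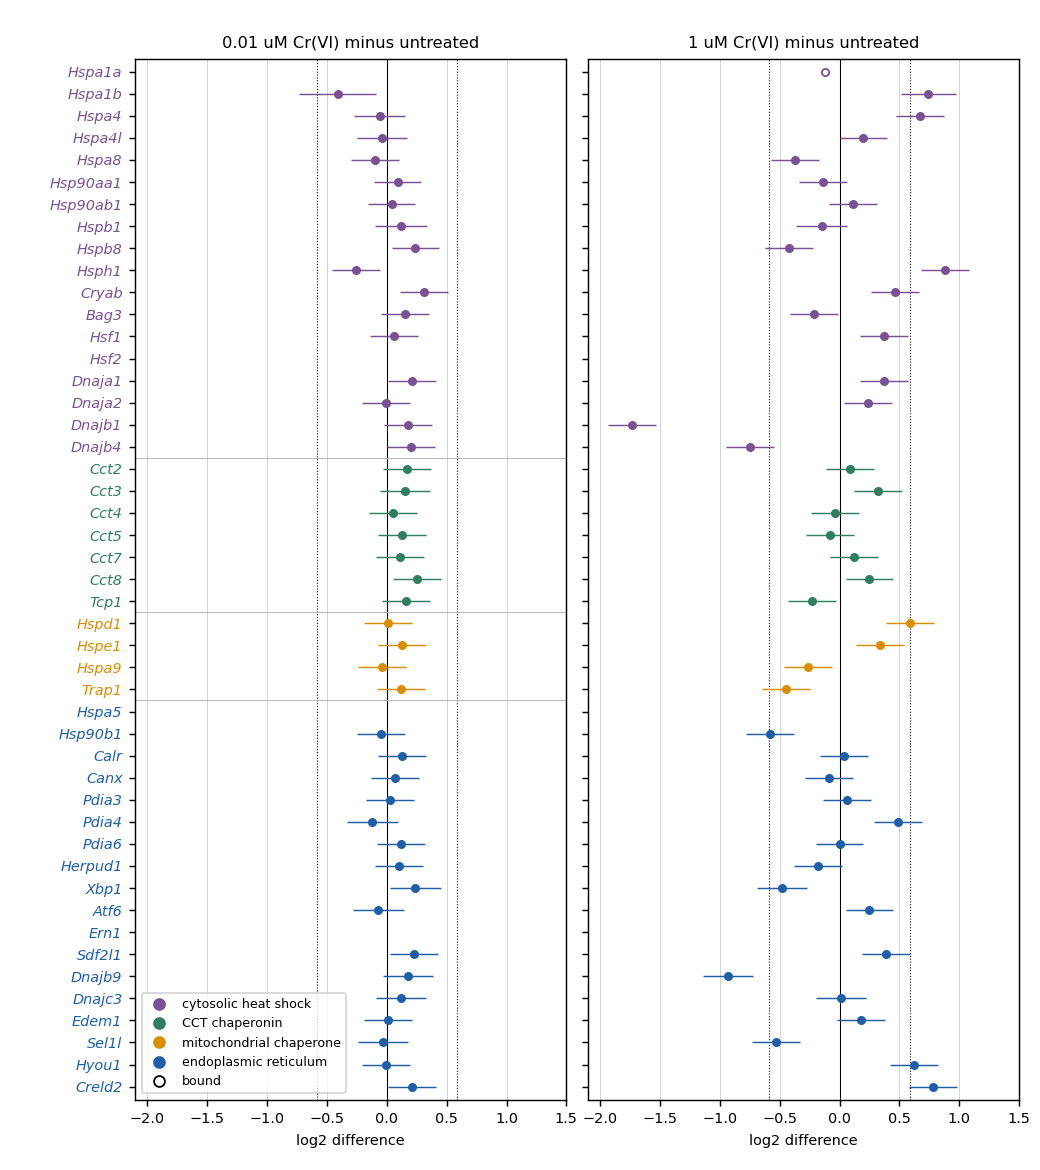
Log2 difference of each member from the untreated array (x axis) at 0.01 uM (left) and 1 uM (right), with bars of 1 technical SE, coloured by compartment; dotted lines mark 1.5-fold and the open circle is a bound. At 0.01 uM all points lie between -0.41 and 0.31, whereas at 1 uM they run from -1.73 to 0.88.

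Among the cytosolic genes, Dnajb1, the main J-domain partner of heat-induced Hsp70, had the largest difference. Its signal was 6.36 on the untreated array, 6.54 at 0.01 uM and 4.63 at 1 uM. The 1 uM array alone was low, 3.32-fold below the untreated array (log2 difference -1.73, SE 0.20). The probe used lies at chr8:86135660-86135719 (mm9). A second, dimmer Dnajb1 probe at chr8:86134225-86134284 read 3.65, 3.93 and 2.80, a log2 difference of -0.85 at 1 uM. Both probes put the 1 uM array lowest, but only the brighter one passed 2-fold, and the mean of the probes was -1.29.

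Dnajb4, another J-domain partner of Hsp70, read 3.52, 3.73 and 2.77 on the untreated, 0.01 uM and 1 uM arrays. It was 1.68-fold lower at 1 uM (log2 difference -0.75, SE 0.20). Its other measured probe differed by -0.37, and the average of the probes, -0.56, fell just short of 1.5-fold. After spike-in scaling the difference of Dnajb4 was -0.07, and that of Dnajb1 was still -1.05. Of the other cytosolic J-domain members, Dnaja2 differed by 0.24 and Dnaja1, on its brightest probe, by 0.37.

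On the higher side stood Hsph1 (Hsp110), which exchanges the nucleotide of Hsp70 and helps it take aggregates apart. Its single probe, at chr5:150419426-150419485 (mm9), read 2.77 untreated, 2.51 at 0.01 uM and 3.65 at 1 uM. The 1 uM array was 1.84-fold above the untreated array (log2 difference 0.88, SE 0.20) and 2.19-fold above the 0.01 uM array. Hspa4, a relative in the same exchange factor family, read 2.18, 2.12 and 2.86, or 1.60-fold higher at 1 uM. The other Hspa4 probes differed by 0.15 and 0.49, and the mean of its probes, 0.44, was under 1.5-fold. A further relative, Hspa4l, differed by 0.20.

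The heat-inducible Hsp70 gene Hspa1b was dim, at -1.15 untreated, -1.56 at 0.01 uM and -0.41 at 1 uM. The 1 uM array was 1.67-fold higher (log2 difference 0.74, SE 0.23), and 0.54 with normexp background correction, under 1.5-fold. A second Hspa1b probe was not well above background on any array. Its near-identical neighbour Hspa1a was detected well above background only in untreated cells, at -2.68. Its bound at 1 uM was a log2 difference of -0.12, smaller than the technical SE of 0.53, so no direction is given. Because Hspa1a and Hspa1b share most of their sequence, the split of signal between the 2 copies is uncertain.

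The abundant cytosolic chaperones differed by less than 1.5-fold. Hspa8, the constitutive Hsp70, read 5.79, 5.70 and 5.43 and differed by -0.37 at 1 uM. Hsp90aa1 read 6.21, 6.30 and 6.07, and Hsp90ab1 read 4.00, 4.04 and 4.10. On the probes used, both Hsp90 genes lay within 1 technical SE of the untreated array. A brighter Hsp90ab1 probe was saturated on all 3 arrays and gave no fold. Hspa8, Hsp90aa1 and Hsp90ab1 have processed pseudogenes, with which their probes may share signal.

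Small heat shock proteins hold unfolded clients without using ATP. Hspb1 differed by -0.15 at 1 uM, and Hspb8, which works with the cochaperone Bag3 in selective autophagy, by -0.42. Bag3 itself differed by -0.21. The lens crystallin Cryab was ambiguous. Its bright probe was 0.46 higher (4.03, 4.34 and 4.49 on the untreated, 0.01 uM and 1 uM arrays), and a dim probe 0.64 lower (log2 difference -0.64).

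Of the heat shock factors, Hsf1 read 2.56, 2.62 and 2.93 and differed by 0.37, under 1.5-fold. Its other probes gave 0.37 and -0.33, so its direction is uncertain. Hsf2 was not well above background on any array. The arrays measure transcripts, and HSF1 is controlled largely through its protein, so these values do not bear on its activity.

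Promoter sequences were taken from RefSeq (GRCm38.p6), where 38 of the 47 members had an entry of 250 bases before and 50 after a transcription start. The heat shock element searched was GAANNTTCNNGAA, which joins 3 GAA units in alternating orientation. Both strands were searched, and overlapping matches were counted separately. It was found in 3 of the 38 members (7.89%) and in 179 of 27025 genes in the whole table (0.662%). The 3 genes were Hsph1, Hspd1 and Hspe1. The Hsph1 match, on the opposite strand and beginning 16 bases into a RefSeq transcript, is shown with 8 bases on each side, since Hsph1 was the highest cytosolic member (chr5:149636280-149636308, minus strand, capitals for the match).
Hsph1: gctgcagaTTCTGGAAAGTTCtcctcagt

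The mitochondrial chaperonin Hspd1 (Hsp60) and its lid Hspe1 (Hsp10), which together form the folding chamber of the matrix, are adjacent genes read in opposite directions. An Hspd1 window and the Hspe1 window share 285 bases, so their matches are the same sites, counted in both genes. The 250 bases before the Hspe1 start are shown because both chaperonin genes share them (chr1:55087898-55088147, plus strand). Capitals mark 2 overlapping heat shock elements, 1 on each strand, from base -89 to base -72 relative to the start.
Hspe1: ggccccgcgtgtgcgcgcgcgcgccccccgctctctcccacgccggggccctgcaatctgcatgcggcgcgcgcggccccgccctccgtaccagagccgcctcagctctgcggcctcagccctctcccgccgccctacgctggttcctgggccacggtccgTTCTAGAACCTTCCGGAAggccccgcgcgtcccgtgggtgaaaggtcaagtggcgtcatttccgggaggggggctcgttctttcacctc

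Hspd1 read 5.01 untreated, 5.02 at 0.01 uM and 5.60 at 1 uM. It was 1.51-fold higher at 1 uM (log2 difference 0.59, SE 0.20), just past the threshold, and a second probe gave 0.60. With normexp background correction it was 0.52 and under 1.5-fold. Hspe1, with signals of 3.50, 3.63 and 3.84, differed by 0.34. The other mitochondrial members lay below 0. Hspa9, the matrix Hsp70, differed by -0.26 on its unsaturated probe, and Trap1, the matrix Hsp90, read 2.90, 3.02 and 2.45 and differed by -0.45. The chaperonin pair and the Hsp70 and Hsp90 of the matrix thus lay to either side of their untreated values, and all but Hspd1 were within 1.5-fold. The 3 genes with the heat shock element differed by 0.88 (Hsph1), 0.59 (Hspd1) and 0.34 (Hspe1) at 1 uM, and by -0.26, 0.01 and 0.13 at 0.01 uM. The other cytosolic members at least 1.5-fold apart at 1 uM had no match and went both ways. They were Hspa1b (0.74), Hspa4 (0.67), Dnajb4 (-0.75) and Dnajb1 (-1.73). Only exact matches were searched, members without a promoter entry could not be, and the remaining genes with the element were not compared. A match is a description of letters, and whether a factor was bound there was not measured.

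CCT is the ring complex that folds actin and tubulin. None of its 7 listed subunits was 1.5-fold apart at 1 uM. Over all genes, 14.0% lay that far above the untreated array and 13.5% below, so few of 7 would pass at those shares. Values ran from -0.23 for Tcp1 to 0.32 for Cct3, with Cct8 at 0.25, Cct7 at 0.12, Cct2 at 0.09, Cct4 at -0.04 and Cct5 at -0.08. The technical SE of each was 0.20. At 0.01 uM all 7 were above the untreated array, from 0.05 for Cct4 to 0.25 for Cct8. Of all genes measured in that comparison, 6830 of 10573 were also above it. The CCT median was 0.15 beside 0.06 over all genes, but after loess scaling the CCT median was -0.07.

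Of 17 ER members compared at 1 uM, 2 passed 1.5-fold upwards and 1 downwards, where 14.0% and 13.5% of all genes did so. The ER stress element, a CCAAT box and CCACG separated by 9 bases (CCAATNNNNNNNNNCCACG), is bound by NF-Y together with ATF6. On either strand it was found in 7 of 16 ER members with a promoter entry (43.8%), none of the other members with an entry and 37 of 27025 genes in the table (0.137%). The 7 were Hspa5, Hsp90b1, Calr, Canx, Pdia6, Dnajc3 and Creld2. A 7-base XBP1 and ATF6 element, TGACGTG, was found in 1 of 38 members (Hspa5) and in 2.22% of all genes. The promoters below, 250 bases ending at the start, show the same element in Creld2 and Hsp90b1, which lay to either side of their untreated values at 1 uM, in Calr, which lay near its own, and in Hspa5, which could not be compared. Capitals mark the element. They lie at chr15:88819396-88819645 (Creld2, plus strand), chr10:86705445-86705694 (Hsp90b1, minus strand), chr8:84846932-84847181 (Calr, minus strand) and chr2:34771840-34772089 (Hspa5, plus strand), in GRCm38.p6.
Creld2: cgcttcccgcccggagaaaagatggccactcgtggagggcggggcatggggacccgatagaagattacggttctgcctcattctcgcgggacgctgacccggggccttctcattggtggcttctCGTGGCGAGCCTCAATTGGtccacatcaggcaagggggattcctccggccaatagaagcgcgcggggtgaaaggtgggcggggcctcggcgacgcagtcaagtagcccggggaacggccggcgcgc
Hsp90b1: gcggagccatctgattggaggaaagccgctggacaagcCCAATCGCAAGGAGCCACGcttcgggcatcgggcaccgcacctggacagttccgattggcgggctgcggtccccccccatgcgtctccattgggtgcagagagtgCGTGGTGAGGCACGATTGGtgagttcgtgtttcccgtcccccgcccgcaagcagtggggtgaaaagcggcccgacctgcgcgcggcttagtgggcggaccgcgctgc
Calr: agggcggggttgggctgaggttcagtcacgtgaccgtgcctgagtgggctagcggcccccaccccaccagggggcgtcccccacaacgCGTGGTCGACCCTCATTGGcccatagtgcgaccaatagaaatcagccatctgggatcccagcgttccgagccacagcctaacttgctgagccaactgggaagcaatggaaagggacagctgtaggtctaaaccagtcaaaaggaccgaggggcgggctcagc
Hspa5: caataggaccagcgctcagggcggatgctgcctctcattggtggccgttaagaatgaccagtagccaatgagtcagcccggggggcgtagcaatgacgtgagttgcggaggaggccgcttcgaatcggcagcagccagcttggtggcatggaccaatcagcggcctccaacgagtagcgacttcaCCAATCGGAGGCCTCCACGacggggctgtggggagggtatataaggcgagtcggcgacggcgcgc

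Creld2, an ER protein with disulfide isomerase activity that is induced by ER stress, read 4.81 untreated, 5.02 at 0.01 uM and 5.59 at 1 uM. The 1 uM array was 1.72-fold higher (log2 difference 0.78, SE 0.20) on its single probe, at chr15:88656997-88657056 (mm9). Hsp90b1 (GRP94), the Hsp90 of the ER, read 6.19, 6.13 and 5.60 and differed by -0.58, just short of 1.5-fold in the other direction. Its brighter probe was saturated on both arrays and gave no fold. Its promoter carries 2 copies of the element. Calr, a lectin chaperone of new glycoproteins, read 4.96, 5.08 and 5.0 and differed by 0.04.

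Hspa5 (BiP), the central ER Hsp70 and the usual readout of ER stress, could not be compared. Its single probe was saturated on the untreated array (6.97) and at 1 uM (6.90), and unsaturated at 0.01 uM (7.25). Of the other genes with the element, Canx, the membrane lectin partner of Calr, differed by -0.09, and the oxidoreductase Pdia6 read 6.25 on both the untreated and the 1 uM array. Dnajc3, an ER J-domain protein, differed by 0.01. The genes that carried the element therefore ranged from -0.58 to 0.78 at 1 uM.

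Hyou1 (GRP170), the large Hsp70 relative that exchanges nucleotide on BiP, was 1.53-fold higher at 1 uM. It read 3.16 untreated, 3.15 at 0.01 uM and 3.78 at 1 uM (log2 difference 0.62, SE 0.20). A second Hyou1 probe was not well above background on any array. The oxidoreductase Pdia4 read 1.83, 1.71 and 2.32 and differed by 0.49, and Sdf2l1, a partner of ER J-domain proteins, by 0.39. Pdia3, the oxidoreductase of the lectin cycle, differed by 0.06.

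Dnajb9 (ERdj4), a target of XBP1 that helps send misfolded proteins to degradation, was lower at 1 uM. Its signals were 1.29 untreated, 1.46 at 0.01 uM and 0.36 at 1 uM, a 1.90-fold lower value (log2 difference -0.93, SE 0.21). The probe lies at chr12:45307313-45307372 (mm9), and the other Dnajb9 probes gave -0.89 and -0.82. All 3 probes thus gave like values. After spike-in scaling Dnajb9 was at -0.25.

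Xbp1 itself, whose transcript is spliced by IRE1, read 1.76, 1.99 and 1.28 and differed by -0.48, or 0.20 after spike-in scaling. The files do not state whether its probe separates spliced from unspliced transcripts. Ern1, the gene of IRE1, was not well above background on any array, and Atf6 differed by 0.25. Of the degradation genes, Sel1l, the scaffold of the ER ubiquitin ligase, differed by -0.53 (-0.04 on another probe), Herpud1 by -0.18 and Edem1, which hands glycoproteins over for degradation, by 0.18. The 3 lay within 1.5-fold.

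**Figure D3:**
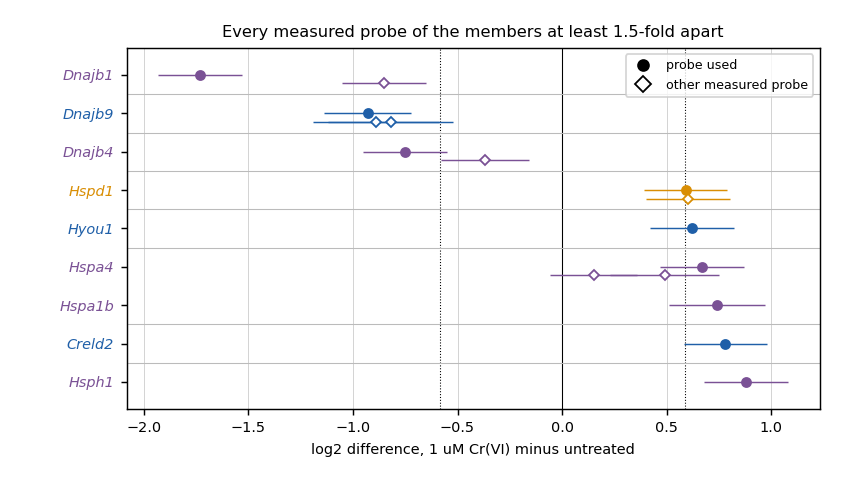
Log2 difference, 1 uM minus untreated (x axis), for every measured probe of the 9 members at least 1.5-fold apart, with bars of 1 technical SE; filled circles are the probe used, open diamonds other probes, and dotted lines mark 1.5-fold. Hspd1 and Dnajb9 probes lie together, while those of Dnajb1 are at -1.73 and -0.85 and those of Hspa4 between 0.15 and 0.67.

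Probes of the same gene were not always alike. At 1 uM, 20 members had 2 or more measured probes. In 9 of them probes lay on both sides of 0, and the median range between probes of a gene was 0.39. Besides Cryab, the disagreement was large in 3 members. A dim Pdia6 probe read -0.27, -0.95 and 0.74, or 1.01 higher at 1 uM, while its other probes differed by -0.19 to 0.03. One Dnajc3 probe differed by -0.82, and the others by -0.01 to 0.21. For Dnaja1, 1 probe differed by -0.56 and a dim one was at a bound of 0.91, so no direction can be given for that gene.

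At 0.01 uM, none of 45 members compared was 1.5-fold from the untreated array. Over all genes, 0.898% lay that far above it and 1.15% that far below it, so few members would pass at the background share. Members ranged from -0.41 for Hspa1b to 0.31 for Cryab. Their median was 0.11, beside 0.06 over all genes, and it turned to -0.03 with quantile normalization and to -0.07 with loess scaling. This comparison uses the same untreated array as that at 1 uM. Compartment medians were 0.08 for the cytosol, 0.15 for CCT, 0.06 for mitochondria and 0.08 for the ER. All were below the technical SE of 1 difference, which is not the error of a median.

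Between the doses, 5 of 44 members compared were higher at 1 uM by 1.5-fold or more (12.4% of all genes) and 5 were lower by as much (17.5% of all genes). It shares 1 array with each comparison against untreated cells, the 1 uM array with one and the 0.01 uM array with the other, and is no separate evidence. The higher genes were Hspa1b (log2 difference 1.15), Hsph1 (1.13), Hspa4 (0.73), Hyou1 (0.63) and Pdia4 (0.61). The lower genes were Dnajb1 (-1.91), Dnajb9 (-1.11), Dnajb4 (-0.95), Xbp1 (-0.71) and Hspb8 (-0.66). At 2-fold, 2 were higher (5.25% of all genes) and 2 lower (6.45% of all genes). Among 43 members measured on all arrays, the 1 uM array was at least 1.5-fold from both other arrays in 7 (16.3%, against 21.3% of 10418 genes measured on all arrays). The untreated and 0.01 uM arrays stood so in 0 members, against 0.336% and 1.01% of those genes.

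**Figure D4:**
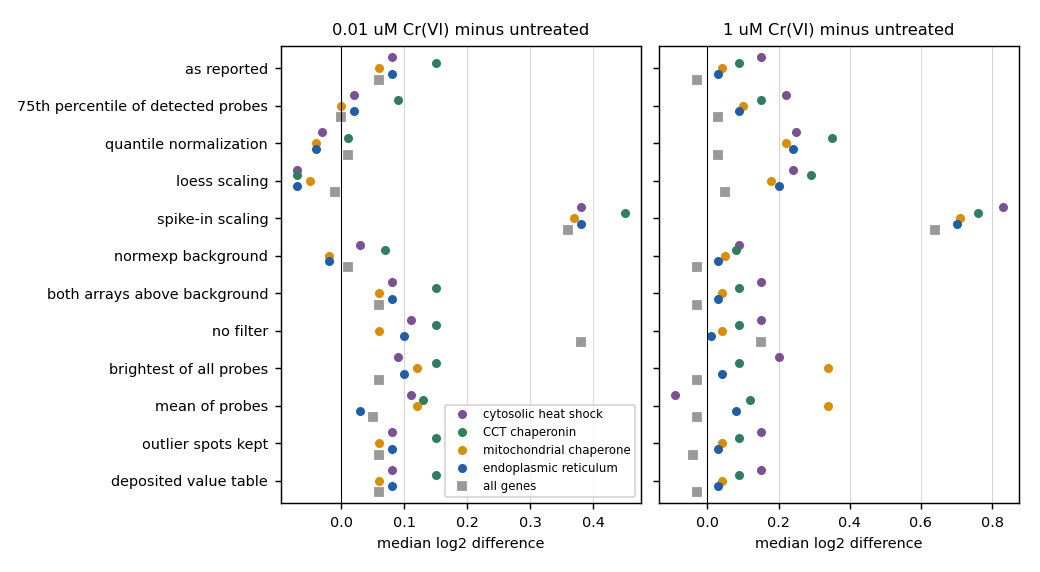
Median log2 difference from the untreated array (x axis) of the measured members of each compartment and of all genes, at 0.01 uM (left) and 1 uM (right), as reported and under 11 other settings (rows). At 0.01 uM medians lie on either side of 0 depending on scaling, and spike-in scaling puts the 1 uM medians between 0.70 and 0.83 with all genes at 0.64.

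Lists of 126 further genes from the same pathways place the members in context at 1 uM, where 14.0% of all genes were 1.5-fold or more above the untreated array and 13.5% below it. Counts in these lists of 5 to 20 compared genes are descriptions to be read against those shares. The 17 cochaperones of Hsp70 and Hsp90 had a median of 0.16, and 3 of them passed 1.5-fold upwards and 2 downwards, near the shares of all genes. Fkbp5, an Hsp90 cochaperone of steroid receptors, read -2.61 untreated, -2.92 at 0.01 uM (not well above background) and -0.82 at 1 uM, 3.46-fold above the untreated array. Of 11 other heat shock and J-domain genes compared, 1 was higher and 2 lower, and the largest difference was in Hspa2, a further Hsp70 (-0.97). The median of that list was 0.01, and -0.30 with probes averaged. Of 9 prefoldin and remaining CCT genes, 2 were lower, with Pfdn5 lowest at -0.79. Of 12 mitochondrial quality control genes, 1 was lower, the iron-sulfur cluster cochaperone Hscb at -0.93.

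The PERK and ATF4 branch, which slows translation and turns on amino acid genes, was mixed. Its 18 compared genes included 4 that were 1.5-fold or more above the untreated array and 2 below it (14.0% and 13.5% of all genes). The median was -0.17 and turned to 0.06 under quantile normalization and to 0.51 under spike-in scaling. Chac1, a glutathione-degrading enzyme, read 4.22, 4.23 and 5.36 and was 2.20-fold higher at 1 uM. Ppp1r15a (GADD34), the phosphatase subunit that ends the translation block, read 3.6, 3.69 and 2.37 and was 2.35-fold lower. These 2 genes of the same branch thus differed in opposite directions.

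For the ER lists, the same shares of all genes at 1 uM, 14.0% higher and 13.5% lower, apply. Of 15 ER-associated degradation genes compared, 0 were higher and 1, the lectin Os9, was lower at -0.61. Of 20 other ER folding genes, 1 was higher and 1 lower, and the largest difference was in Manf, a secreted ER stress protein, 1.60-fold higher. All 12 collagen folding genes, which include hydroxylases and isomerases that prepare procollagen, were below the untreated array at 1 uM. Of all measured genes, 5900 of 11177 were below it. The collagen folding median was -0.48 and turned to 0.20 after spike-in scaling. Of these 12, 4 were at least 1.5-fold lower, and Plod1, a lysyl hydroxylase, was 2.59-fold lower (3.72, 3.87 and 2.35). The fibroblast markers on the same array were mixed. Fn1 (-1.66), Pdgfrb (-0.85), Col3a1 (-0.71) and Col1a1 (-0.68) were 1.5-fold or more lower and Lum (0.98) was higher, and the median of 8 measured markers was -0.53. Of 5 ER membrane stress factors compared, 2 were lower, with the site-1 protease gene Mbtps1 at -0.60. At 0.01 uM, 0 genes of these lists were 1.5-fold apart.

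**Figure D5:**
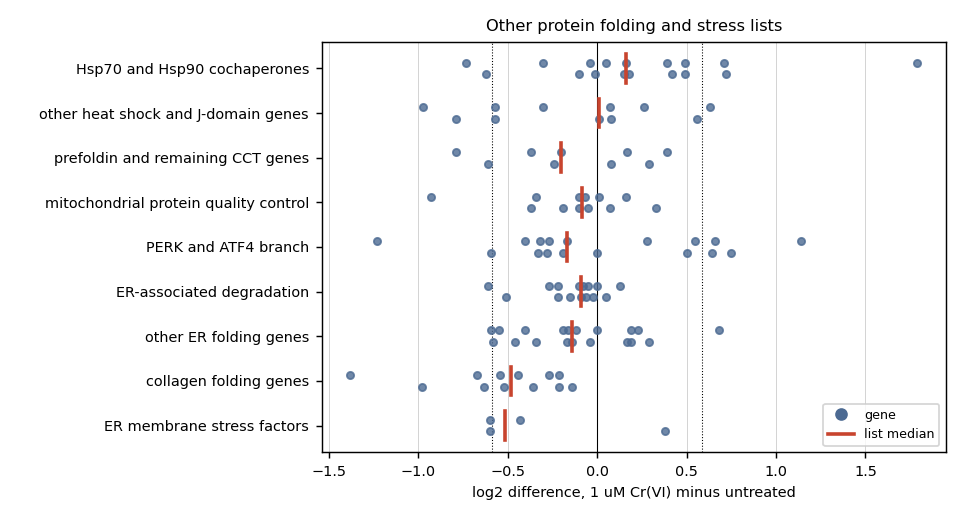
Log2 difference, 1 uM minus untreated (x axis), of each measured gene (points) in 9 further protein folding and stress lists (rows), with list medians as red lines and dotted lines at 1.5-fold. The collagen folding genes all lie below 0, from -1.38 to -0.14, where 5900 of 11177 measured genes of the array also lie below 0. Fkbp5 stands alone at 1.79.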

How the data were processed

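RNA of the 3 groups was measured on 3 one-colour arrays of 1 slide, so no batch could be separated. Per the file headers, the authors extracted spot intensity with Agilent Feature Extraction 10.5.1.1, which subtracts background, detrends and gives surrogates to dim spots. How the log2 values of the deposited table were made is not stated in the sources at hand. Each column differed from log2 processed signal by 1 constant (9.45 untreated, 9.01 at 0.01 uM, 9.56 at 1 uM). This held within 0.01 for at least 99.8% of 41167 probes, with column medians of -4.23, -3.96 and -4.03. The constants equal the 75th percentiles of the same arrays, so the deposited values carry the scaling used here.

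Control and outlier spots were left out, spots of a probe averaged as log2 and each array's 75th percentile subtracted. Probes were named by RefSeq accession (25089), symbol (6339) or synonym (1639), and 8107 kept the file's name. A gene was read from its brightest probe not saturated on any array, otherwise its brightest. It was compared where well above background on 1 array or more. A value dim or saturated on 1 array gives a bound, the brighter value against the dim one or, if higher, the lowest detected signal of that array. Genes saturated on both got no fold. Probe coordinates are mm9, per the file headers, and promoters GRCm38.p6. The 2 builds were not mixed.

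Named were members at least 1.5-fold apart in any comparison, all CCT and mitochondrial members, members whose probes disagreed, and in the further lists up to 4 genes per direction at least 2-fold apart, or otherwise the largest difference. Other members were named for their role after their values were seen. Members, lists and motifs were chosen with earlier results of these data known. Python 3.11.15, numpy 2.4.6, pandas 2.3.3, statsmodels 0.14.6 (loess, span 0.4), R 4.3.3 and limma 3.58.1 (normexp, offset 50) were used. The counting was tested on simulated data. Precision is limited by the number of arrays. There were 11 alternatives, covering scaling, background correction, filter, probe choice, outlier spots and the deposited table.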

Additional observations from a re-analysis of the deposited data

How the results depend on the processing

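No paired analysis was possible because each group had 1 array and no replicate numbers are shared, and for the same reason no replicate could be left out. Keeping outlier spots and requiring both arrays above background left every reported count and compartment median of the members as it was. The filter on both arrays reduced the members compared at 1 uM only from 45 to 44, so it could change little. The deposited table gave the same values, but it carries the same signal and the same scaling, so this outcome was fixed in advance. At 1 uM, Dnajb1, Dnajb9, Hsph1, Hyou1 and Creld2 stayed past 1.5-fold in all 11 settings other than spike-in scaling, the reported one included, and Dnajb4, Hspa1b, Hspa4 and Hspd1 in 10 of 11. Depth is not defined for arrays, and dim genes such as Hspa1a, Hsf2 and Ern1 are limited by signal over background, and Hspa5 by saturation.

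Median directions depended on scaling. As reported, medians between the doses were -0.08 for all members, 0.11 for the cytosol, -0.09 for CCT and -0.01 for mitochondria. They were -0.1 for the ER and for the PERK and ATF4 branch, and -0.11 for all genes. Mitochondrial quality control stood at -0.13, ER-associated degradation at -0.15 and other ER folding genes at -0.24. Other heat shock genes stood at -0.23 and prefoldin at -0.29. When the 75th percentile was taken over detected probes only, medians between the doses became 0.04 for all members, 0.04 for CCT, 0.12 for mitochondria, 0.03 for the ER, 0.03 for the PERK and ATF4 branch and 0.01 for all genes.

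Quantile normalization gave 2 members at least 2-fold apart at 1 uM (4.44% of members compared, against 10.6% of all genes). Medians at 1 uM were 0.24 for all members, 0.25 for the cytosol, 0.35 for CCT, 0.22 for mitochondria and 0.24 for the ER. In the further lists they were 0.05 for mitochondrial quality control, 0.06 for the PERK and ATF4 branch and 0.04 for ER-associated degradation. At 0.01 uM quantile normalization gave -0.03 for all members, -0.03 for the cytosol and -0.04 for the ER. Between the doses it gave 0.28 for all members, 0.31 for the cytosol, 0.24 for CCT, 0.28 for mitochondria and the ER, 0.13 for mitochondrial quality control, 0.02 for the PERK and ATF4 branch, 0.05 for ER-associated degradation, 0.03 for other ER folding genes and 0.00 for all genes.

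Loess scaling gave a median of 0.22 for all members at 1 uM, and 0.03, 0.00 and 0.02 for mitochondrial quality control, the PERK and ATF4 branch and ER-associated degradation at 1 uM. At 0.01 uM it gave -0.07 for all members, the cytosol, CCT and the ER, -0.05 for mitochondria, -0.03 for the PERK and ATF4 branch and -0.01 for other ER folding genes. Between the doses it gave 0.27 for all members, 0.32 for the cytosol, 0.22 for CCT, 0.27 for mitochondria, 0.28 for the ER, 0.11 for mitochondrial quality control, 0.03 for the PERK and ATF4 branch, 0.04 for ER-associated degradation, 0.00 for other ER folding genes and 0.03 for all genes.

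Spike-in scaling counted 28 members at least 1.5-fold higher, 1 lower and 13 at least 2-fold apart at 1 uM (62.2%, 2.22% and 28.9% of members compared, against 54.0%, 2.90% and 26.4% of all genes under that scaling), with medians of 0.74 for all members, 0.83 for the cytosol, 0.76 for CCT, 0.71 for mitochondria and 0.70 for the ER. In the further lists it gave 0.47 for prefoldin, 0.59 for mitochondrial quality control, 0.51 for the PERK and ATF4 branch, 0.59 for ER-associated degradation, 0.54 for other ER folding genes, 0.20 for collagen folding genes, 0.16 for ER membrane factors and 0.64 for all genes. At 0.01 uM it counted 1 higher member (5.35% of all genes), with medians of 0.41 for all members, 0.38 for the cytosol, 0.45 for CCT, 0.37 for mitochondria and 0.38 for the ER. Between the doses it counted 12 higher and 2 lower members (28.0% and 6.89% of all genes), with medians of 0.29 for all members, 0.48 for the cytosol, 0.29 for CCT, 0.37 for mitochondria and 0.28 for the ER. The further lists stood at 0.15 for other heat shock genes, 0.08 for prefoldin, 0.25 for mitochondrial quality control, 0.28 for the PERK and ATF4 branch, 0.22 for ER-associated degradation, 0.14 for other ER folding genes and 0.26 for all genes. It rests on 5 probes, and the spike-in amounts are not known here.

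Normexp gave -0.02 for the ER at 0.01 uM and 0.02 for CCT between the doses. Between the doses it also gave 2 members at least 2-fold apart (4.55% of members compared, against 7.48% of all genes). Without a filter on dim probes, 2 members passed 1.5-fold upwards at 0.01 uM (4.26% of members compared, against 46.6% of all genes). The median of all genes at 1 uM was then 0.15. Taking the brightest of all probes gave 0.34 for mitochondria at 1 uM and 0.21 between the doses. Averaging probes gave -0.09 for the cytosol, 0.34 for mitochondria and -0.30 for other heat shock genes at 1 uM. At 0.01 uM it gave 1 higher member (2.22% of members compared, against 0.957% of all genes). Between the doses it gave -0.27 for the cytosol, 0.21 for mitochondria and 0.03 for the ER. Causes of these shifts were not tested.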
